A study of Drosophila melanogaster with 2 samples.

Results

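Compact GAF-bound regions of moderate height on the autosomes were described in untreated Drosophila S2 cells, an established line of cultured fly cells. Members were selected on their measured width and summit height, as regions on chromosome arms 2L, 2R, 3L and 3R that were shorter than 2000 bp and whose summit held at least 100 and under 400 overlapping sequence tags. This gave 881 regions, 19.1% of the 4604 regions called in these cells, from among 3366 regions on these arms. Since width and height chose the members, both are given here as a description only. At the upper limit of height, the highest member summit held 399 tags, and 4 compact regions at 400 tags lay just outside. At the lower limit, 7 members held 100 tags and 11 compact regions at 99 tags were left out. The widest members measured 1998 bp, and the narrowest region of moderate height beyond the limit measured 2006 bp.

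GAF, the product of the Trl gene, is a zinc finger protein that binds GAGA-rich DNA and carries a BTB domain through which GAF molecules associate with each other. It is known for binding promoters of heat shock genes and of developmental genes, where it works with nucleosome remodellers to keep DNA accessible. Because GAGA elements often occur in clusters and GAF can bind them as an oligomer, a bound region can hold 1 maximum of ChIP signal or several. The question here was how the moderate regions that split into 2 or more individual peaks differ from those that form 1 peak.

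GAF was immunoprecipitated with an anti-GAF antibody from cross-linked S2 cells and the DNA was sequenced. The study made 2 ChIP replicates of untreated cells and 2 of cells incubated with 10 μg/ml GAF dsRNA for 5 days, and no list of the GAF-RNAi cells was used here. The list analysed comes from the untreated cells, which the notes deposited with it call mock-RNAi, and the authors pooled both replicates before calling regions. No spread between replicates can therefore be given, and differences below are set against counting intervals only. The background was a pre-immune IP according to these notes, and a mock IP with non-specific IgG according to the description of the series. The pooled ChIP library held 11288498 tags, of which 6645644 (58.9%) remained after tags at the same position and strand were limited to 3, and 5.43% of the remaining tags lay in the members. The background library held 5181809 tags after the same step. Regions are neighbouring stretches of 1 pooled experiment and not replicates, so no test was run between classes of regions.

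Most moderate regions were split when every listed individual peak was counted. Of the 881 members, 729 (82.7%, 95% Wilson interval 80.1 to 85.1%, counting error only) overlapped 2 or more individual peaks and 152 overlapped 1. The commonest form was a region with 2 individual peaks, with 339 members. A further 251 members had 3 individual peaks, 109 had 4, 25 had 5 and 5 had 6. The share with 2 or more was 75.6% over all 4604 regions and 82.8% over all 3366 on these arms, which include regions of 2000 bp or more. Over the 2749 compact regions on these arms, members included, it was 78.9% (95% Wilson interval 77.3 to 80.4%, counting error only). The members' share depended on which individual peaks were counted. With peaks of at least 20 tags 39.4% of the members had 2 or more, and with peaks of at least 0.25 of the highest 16.8% had.

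Splitting followed width. Under 800 bp, 35 members had 2 or more individual peaks and 44 had 1. From 800 to under 1000 bp the counts were 190 and 70, and from 1000 to under 1200 bp they were 163 and 31. Above that, 129 members of 1200 to under 1400 bp were split and 6 were not. The widest member with 1 individual peak spanned 1424 bp, and all 115 members of 1600 bp or more were split. The median width was 1161 bp for members with 2 or more individual peaks and 871.5 bp for those with 1. Width and the number of individual peaks thus went together, so some comparisons below are also given within width classes.

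**Figure D1:**
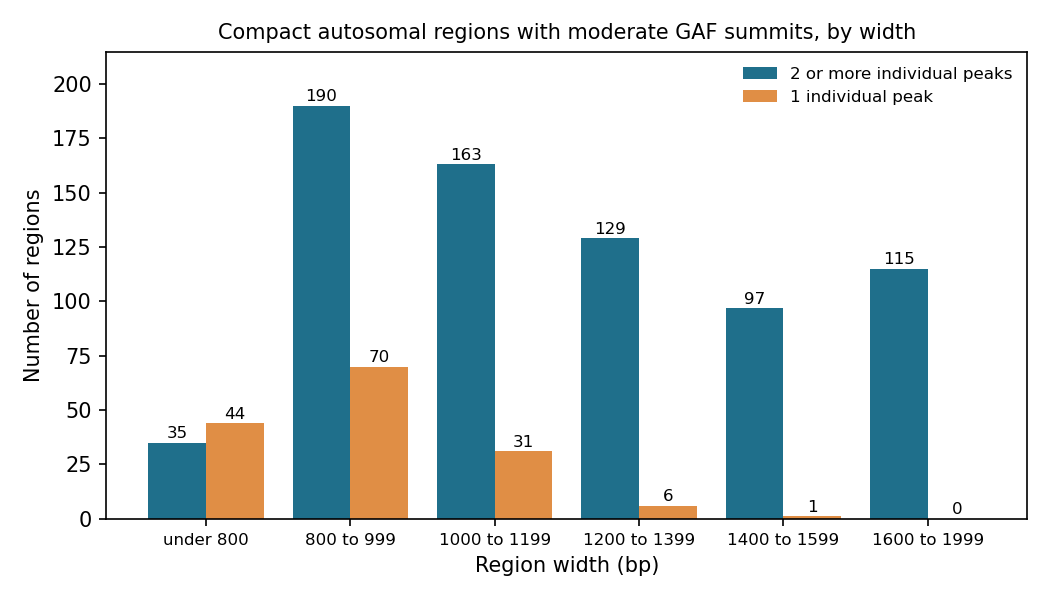
Number of member regions (y axis) in 6 classes of region width in bp (x axis), with 2 or more individual peaks (blue) and with 1 (orange). Regions with 1 individual peak are the more frequent only under 800 bp (35 against 44), and only 1 of them is 1400 bp or wider.

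The second peak of a split region was small in most cases. Across the 729 split members the second individual peak had a median of 19 tags at its summit, with quartiles of 12 and 34 tags. Its height was a median 0.101 of the highest individual peak in the same region, with quartiles of 0.0571 and 0.202. In 382 split members (52.4%) the second peak stayed under 20 tags. In 87 of the 729 split members (11.9%) it was lower than the number of tags expected from the background IP at the region's own summit. In only 74 split members (10.2%, 95% Wilson interval 8.16 to 12.6%, counting error only) did the second peak reach at least 0.5 of the highest, and in 62 (8.50%) it reached 100 tags by itself. Over the 3481 split regions of the whole list, 44.2% had a second peak under 20 tags and 7.56% had one below the expectation. There 28.6% had one of at least 0.5 of the highest and 18.8% had one of at least 100 tags. As summit height chose the members, these shares are descriptions. Most split members thus held 1 dominant maximum with a low neighbour, and a minority held maxima of like height.

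**Figure D2:**
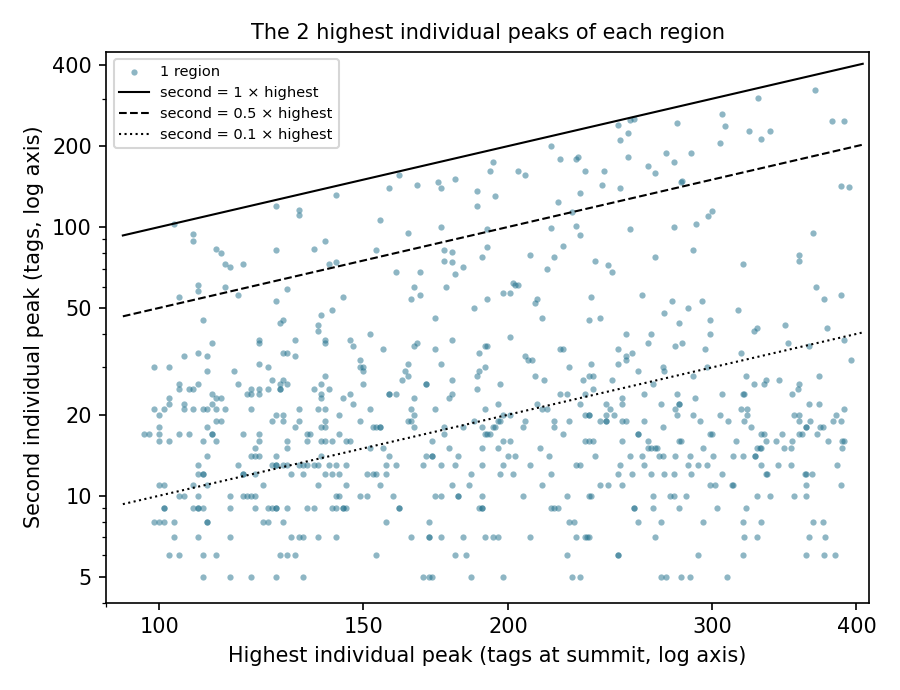
Tags at the summit of the second individual peak (y axis, log) against the highest individual peak of the same region (x axis, log), 1 point for each of the 729 split members, with lines where the second peak equals 1, 0.5 and 0.1 of the highest. Most points lie below the line of 0.5 at every height, and 74 of 729 lie on or above it.

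In the median, the height of the second peak changed little with the height of the region. Its median was 17 tags in members with a summit from 100 to under 150 tags, 19 from 150 to under 200, 21 from 200 to under 250, 20 from 250 to under 300 and 18 from 300 to under 400. The median ratio to the highest peak was 0.144, 0.116, 0.0981, 0.0752 and 0.0511 in the same classes. The upper quartile of the second peak was less level, at 26, 36, 55, 43 and 33 tags in these classes. A second peak of at least 100 tags was found in 2.13%, 8.55%, 12.8%, 15.7% and 10.7% of their split members. The falling median ratio thus came with a rising highest peak over a nearly level median second peak. By width, in contrast, the median second peak was 9 tags under 800 bp, 12 from 800 to under 1000 bp, 16 from 1000 to under 1200 bp, 22 from 1200 to under 1400 bp, 35 from 1400 to under 1600 bp and 45 in the widest class.

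**Figure D3:**
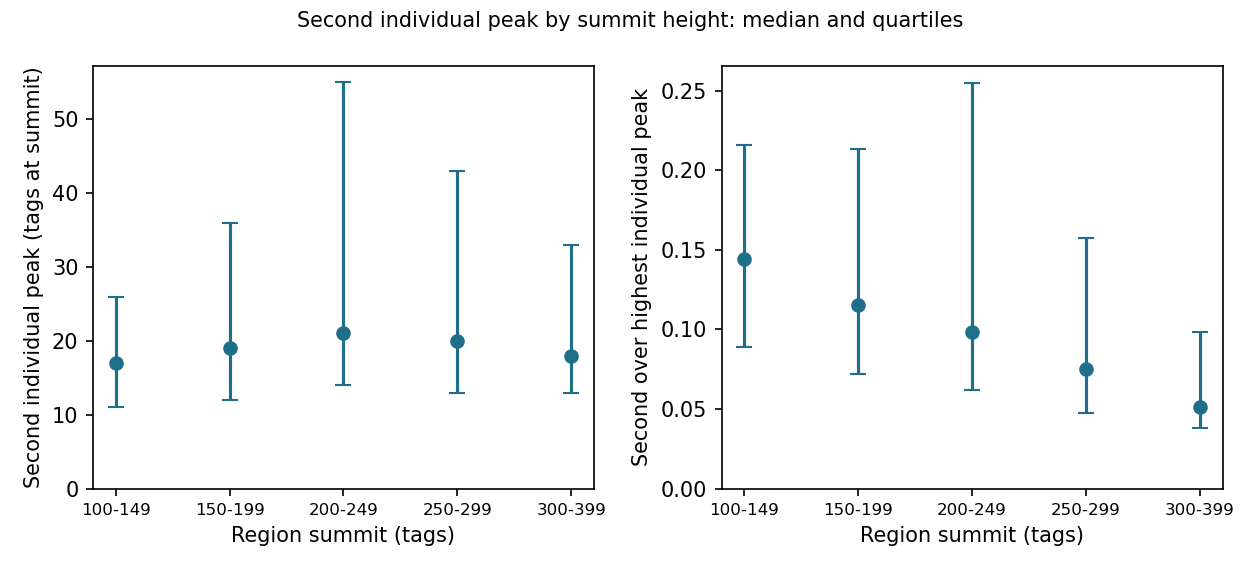
Second individual peak of the split members in tags (left) and as a ratio to the highest individual peak (right), by tags at the region summit (x axis). Points are medians and bars run from the lower to the upper quartile. The median in tags stays between 17 and 21, while the median ratio lies at 0.144 in the lowest and 0.0511 in the highest class.

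Low second peaks were also the common case in the neighbouring height classes of compact autosomal regions. The median second peak was 19 tags in the moderate members, against 25 tags in the 423 split regions with a summit of 400 or more and 17 tags in the 1017 split regions with a summit under 100. The share whose second peak reached 0.5 of the highest was 10.2% in the moderate members, against 10.9% (95% Wilson interval 8.25 to 14.2%) in the strong and 35.6% (32.7 to 38.6%) in the weak regions. The share split at all was 82.7% in the moderate members, against 87.9% (84.7 to 90.6%) in the strong and 73.3% (70.9 to 75.6%) in the weak regions. Summit height chose all of these classes, so the ratios are descriptions.

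The 2 highest individual peaks of a split member lay a median of 460 bp apart, with quartiles of 390 and 575 bp and a range from 195 to 1270 bp. The median distance was 575 bp in the strong and 350 bp in the weak compact regions, whose median widths differ in the same order as well (1528 bp in the strong, 804 bp in the weak and 1099 bp in all moderate regions). Among the 339 members with exactly 2 individual peaks, the lower one lay at the smaller coordinate in 191 (56.3%) and at the larger in the rest. Among the 390 members with 3 or more individual peaks, the highest lay between others in 260 (66.7%). Lower peaks thus flanked the highest on both sides in most regions with 3 or more.

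Members with a second peak of at least 0.5 of the highest were the exception, and they were wide. These 74 regions had a median width of 1535 bp, against 1126 bp for the 655 other split members, and a median second peak of 145 tags, against 17. Their 2 highest peaks lay a median of 460 bp apart, the same as in the other split members. Their median summit was 200.5 tags, against 192 tags in the other split members, and their median fold enrichment was 24.9, against 24.2.

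The most even case lay at CdGAPr on chromosome 2L from 19790612 to 19792099, with 4 individual peaks of 17, 66, 103 and 103 tags from the smaller to the larger coordinate. Both maxima of 103 tags were 260 bp apart. On chromosome 3R from 9226630 to 9228372, 5 individual peaks held 6, 137, 255, 251 and 9 tags, and the 2 highest were 310 bp apart. On chromosome 3R from 26028149 to 26030142, 3 peaks held 14, 257 and 252 tags, with 835 bp between the highest. In the last region each of the high peaks was over 800 bp wide and they shared the region almost evenly, whereas in the 5-peak region they formed a cluster inside low edges.

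Many individual peaks did not always mean several strong maxima. Among the 5 members with 6 individual peaks, the region on chromosome 3R from 18491702 to 18493679 held peaks of 13, 323, 112, 113, 228 and 24 tags, so that 4 of its peaks were above 100 tags. The region on chromosome 2L from 9757640 to 9759177 held 10, 8, 83, 37, 112 and 24 tags. In the other 3, the second peak held 21, 23 and 70 tags under highest peaks of 132, 138 and 216 tags. The narrowest split member, on chromosome 2R from 149739 to 150238, was only 500 bp wide and still held 126 and 120 tags 195 bp apart, the shortest distance among all members.

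Regions with 2 or more individual peaks were not clearly higher at the summit. The median summit was 194 tags in members with 2 or more individual peaks and 176 tags in those with 1, a difference of 18 tags for which the 95% binomial intervals of both medians leave a range from -14 to 47. Within width classes the order turned round. Under 800 bp the medians were 126 tags with 2 or more and 155 tags with 1. From 800 to under 1000 bp they were 156 and 169 tags, and from 1000 to under 1200 bp they were 227 and 273 tags. At like width, regions with 2 or more peaks had the lower median summit in each of these 3 classes. Over all members under 1000 bp the difference of -15.5 tags has a range from -37 to 18, which includes 0. As width and height chose the members, these summit values are a description only.

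**Figure D4:**
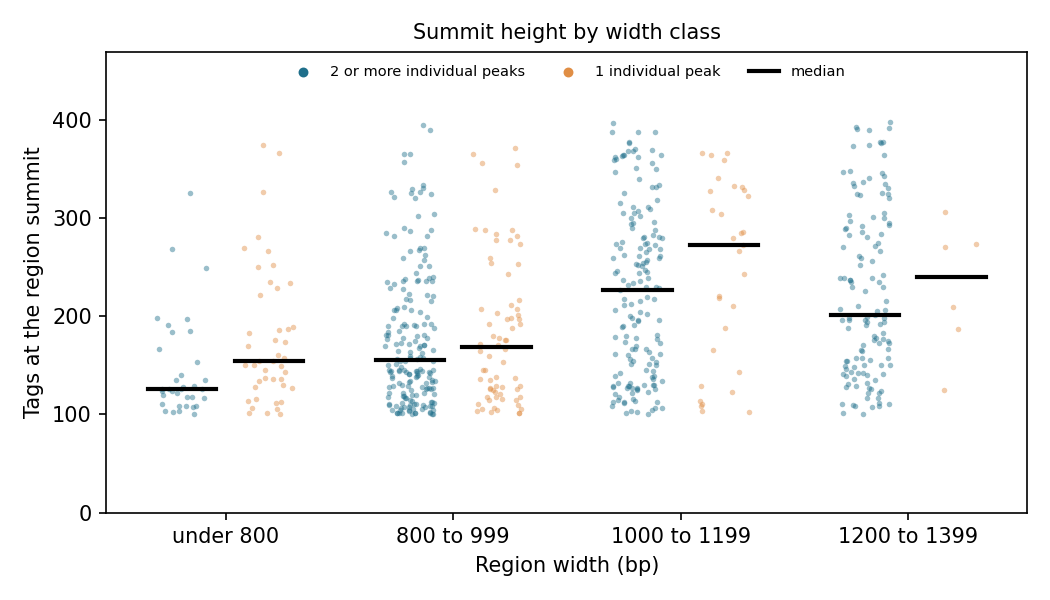
Tags at the region summit (y axis) by region width in bp (x axis) for members with 2 or more individual peaks (blue) and with 1 (orange), 1 point per region, bars at the medians. In each of the 4 width classes the median with 2 or more individual peaks is the lower, and the points overlap widely. The medians are 126 against 155 tags under 800 bp and 227 against 273 tags from 1000 to under 1200 bp. From 1200 to under 1400 bp only 6 members have 1 individual peak, against 129 with 2 or more.

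Fold enrichment is the summit height over the tags expected from the background IP, or over the genome-wide level (5.88 tags) where higher. Its median was 24.25 in members with 2 or more individual peaks and 23.6 in members with 1, and the difference of 0.63 has a range from -2.75 to 4.25. The 3 largest values in split members were on chromosome 3L, at 67.2 (from 9607345 to 9608850), 66.8 (from 19922026 to 19923569) and 66.1 (from 8084500 to 8085358). Their summits of 395, 393 and 395 tags stood over second peaks of 21, 56 and 16 tags, so that these 3 members had 1 dominant maximum. This did not hold for all highly enriched split members. Where the second peak was at least 0.5 of the highest, fold enrichment reached 65.3. Among members with 1 peak the largest were 63.8 and 61.9 on chromosome 2R (from 10247286 to 10248039 and from 10463917 to 10464997) and 61.1 on chromosome 3L (from 21597204 to 21598210). As the height entered the choice of members, these values describe them and support no comparison with other regions.

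The expectation from the background IP was not used to choose the members. Its median was 7.86 tags in members with 2 or more individual peaks and 7.71 tags in those with 1, with a range of -0.24 to 0.75 for the difference. It stood at 5.88 tags, the lowest value that the genome-wide tag density allows, in 108 split members (14.8%) and 27 members with 1 peak (17.8%), and the difference of -2.95 percentage points has a range from -12.2 to 5.07. Both ranges include 0. Over all compact autosomal regions, members included, 18.0% of the split regions and 23.1% of those with 1 peak stood at this lowest value. Over the whole list the shares were 31.4% and 50.3%. Among members the expectation did vary by arm, and whether this holds for all regions of each arm was not tested. The median expectation in members was 6.74 tags on 3L, against 8.22 on 2L, 8.07 on 2R and 8.20 on 3R, and 74 of the 228 members on 3L (32.5%) were at the lowest value, against 12 of 175 on 2L (6.86%), 13 of 211 on 2R (6.16%) and 36 of 267 on 3R (13.5%). Median fold enrichment was 27.9 on 3L, against 19.85 on 2L, 22.6 on 2R and 24.85 on 3R, beside median summits of 190.5 tags on 3L and 173, 196 and 198 tags on 2L, 2R and 3R. The higher median enrichment on 3L thus came beside the lower background expectation. The median summit on 3L was above that on 2L and below those on 2R and 3R. Fold enrichment is the ratio of summit and expectation, and the part of each in the result was not tested.

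The share of split members lay between 80.1% and 85.3% on the arms. It was 83.4% of 175 members on 2L, 85.3% of 211 on 2R, 82.9% of 228 on 3L and 80.1% of 267 on 3R. The share of split members whose second peak reached 0.5 of the highest was 6.85% on 2L, 11.1% on 2R, 9.52% on 3L and 12.1% on 3R.

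Nearly all members were above the background by the authors' own empirical false discovery rate (FDR), which exchanges ChIP and background IP. An FDR at or below 5% was listed for 865 of the 881 members (98.2%), beside 62.8% of all 4604 regions, and an FDR at or below 1% for 772 members (87.6%), beside 52.9% of all regions. The FDR falls with the height that chose the members, so these shares are no result of their own. At 5%, 716 of 729 split members (98.2%) and 149 of 152 members with 1 peak (98.0%) passed.

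The 16 members above an FDR of 5% were 13 split regions and 3 with 1 peak. They had summits from 100 to 142 tags, and their background expectation ran from 9.74 to 21.9 tags, above the member median of 7.86 in each. An FDR of 100% was listed for 2 of them, on chromosome 2L from 8675132 to 8676250 (126 tags over an expected 21.9, fold enrichment 5.75) and on chromosome 3R from 26577464 to 26578919 (101 tags over 18.8, fold enrichment 5.36). The highest expectations of all members, 22.0 and 22.3 tags, were on chromosome 3R from 25507564 to 25509264 and from 24686639 to 24687650, where summits of 232 and 244 tags kept the FDR at 1.05% and 0.6%. The members above 5% were thus low summits over a raised background expectation.

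The p-values of the list, written as 10 times -log10, are coarse at the strong end. The value 3100 was listed for 153 members (17.4%), beside 30.7% of all 4604 regions. Above it were 12 members, out of 19 such regions in the whole list. The largest value among the members, 3230.05, belonged to a member with 1 peak on chromosome 2R from 15282143 to 15283151, with 522 tags and a summit of 323. The member with the largest fold enrichment (67.2, 734 tags) was listed at 3100. These values were therefore not used to rank members.

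Summits lay near the middle of the regions. The distance from the summit to the centre of the region had a median of 100 bp in members with 2 or more individual peaks and 52.25 bp in those with 1, and the difference of 47.75 bp has a range from 19.5 to 69 bp. Relative to the width these were 8.52% and 5.80%. The summit was within 10% of the width from the centre in 407 split members (55.8%) and 113 members with 1 peak (74.3%). These shares were 55.6% and 73.3% over all compact autosomal regions, members included, and 50.6% and 71.1% over the whole list. A central summit was thus not particular to the members. The difference in distance was not of 1 direction in narrow regions. Under 800 bp the median distance was 51 bp with 2 or more individual peaks and 46.25 bp with 1, and from 800 to under 1000 bp it was 30.75 and 44.25 bp. Over all members under 1000 bp the difference was -11.25 bp, with a range from -29 to 5.5 bp. Over all members under 1500 bp it was 19.25 bp, with a range from -4.5 to 40 bp. Both of these ranges include 0. In the 74 members with a second peak of at least 0.5 of the highest the median distance was 234.75 bp. It was 85.5 bp in the other split members, beside median widths of 1535 and 1126 bp. The summit was within 10% of the width from the centre in 18 of these 74 (24.3%) and in 389 of the 655 others (59.4%), and the part of width in this was not tested.

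Most members had no other region close by. The nearest other region of the list lay within 1000 bp of 185 split members (25.4%) and of 45 members with 1 peak (29.6%). The median gap was 3983 bp in members with 2 or more individual peaks and 2694 bp in those with 1, and the range for the difference, -1939 to 2714 bp, includes 0. Over all members the share was 26.1%, against 25.4% of the strong and 31.3% of the weak compact regions and 30.7% of the whole list. The smallest gap between a member and its neighbour was 2 bp.

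To place members at genes, their summits were compared with transcription start sites of the dm3 gene list used in the study, of which 1999 transcripts were held here. Since the list was held in part, no share of members at promoters is given. A summit lay within 500 bp of a held start in 50 members, 44 of them with 2 or more individual peaks and 6 with 1. The summit was upstream of the nearest held start in 38 of the 50 (76.0%, 95% Wilson interval 62.6 to 85.7%, counting error only), with a median position of -83 bp and quartiles of -164 and -8.75 bp. It was upstream in 33 of 44 split members and in 5 of 6 members with 1 peak. In the strong and weak compact regions it was upstream in 37 of 45 and 38 of 55. The second peak of the 44 split members lay downstream of the start in 28 and upstream in 16. In the strong compact regions it lay downstream in 19 and upstream in 19, and in the weak ones downstream in 17 and upstream in 25. At these starts the main maximum thus mostly sat just upstream. The counts for the side of the second peak are small, and a difference between the height classes was not tested.

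Genes were named by rule, as those with the largest fold enrichment in each class and those of lists of heat shock, patterning, GAF partner, cytoskeletal and other DNA-binding protein genes. Few of them were among the held starts. Of 6 held patterning genes, vn and abd-A had a member summit within 500 bp, and so had Act57B, the 1 held cytoskeletal or housekeeping gene. Of 2 held GAF and partner genes, 0 had one. The 1 held heat shock gene, Hsp83, had an autosomal region that was no member, and 0 of the other DNA-binding protein genes were held.

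Of the 8 named split members with the largest fold enrichment, 3 had their summit downstream of the start. At Fur1, which encodes a furin-like protease that processes secreted precursors, the region on chromosome 3R from 21297574 to 21299139 had a summit of 378 tags 326 bp downstream of the start and a fold enrichment of 64.3. Its second peak held 42 tags. At ScsbetaA, a subunit of the succinyl-CoA synthetase of the citric acid cycle, the summit of 388 tags was 358 bp downstream (3R, 4764246 to 4765334, fold enrichment 44.7), and a second peak of 13 tags lay 94 bp upstream. At Sdc, which encodes the cell surface proteoglycan syndecan, 247 tags were found 305 bp downstream and a second peak of 68 tags further into the gene (2R, 17367795 to 17368889, fold enrichment 35.0).

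In the other 5 the summit lay upstream. At Gfat2, an enzyme that feeds the hexosamine pathway, 362 tags lay 142 bp upstream (3R, 24164937 to 24165968, fold enrichment 34.0), with 18 tags at the second peak. At mspo, which encodes a secreted spondin, 366 tags lay 68 bp upstream over a second peak of 7 tags (2R, 10600704 to 10601576, fold enrichment 41.0). At Tsp42Ej, a tetraspanin, 283 tags lay 181 bp upstream with a second peak of 22 tags (2R, 2927059 to 2928248). Summits at CHKov2 and nebu held 236 and 324 tags, 70 and 315 bp upstream. None of these 8 split members had a second peak above 68 tags.

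The patterning genes vn and abd-A were named through their list and not for their enrichment. At vn, which encodes a neuregulin-like ligand of the EGF receptor, 175 tags lay 186 bp upstream of the start (3L, 5838454 to 5839372, fold enrichment 25.6) with a second peak of 7 tags. At abd-A, a homeotic gene of the bithorax complex, 126 tags lay 219 bp upstream (3R, 12655653 to 12656442, fold enrichment 15.4) with a second peak of 9 tags. Both were counted as split, although the second peak was under 10 tags.

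Members with 1 individual peak were found at 5 named starts. The highest was at Arc1, which encodes a capsid-forming protein of retrotransposon origin, with 375 tags 11 bp upstream and a fold enrichment of 63.8 in only 754 bp (2R, 10247286 to 10248039). At orb, a germline regulator of mRNA translation, 288 tags lay 103 bp upstream (3R, 19106203 to 19107169, fold enrichment 22.4), over an expected 12.8 tags. At ed, a cell adhesion molecule of the immunoglobulin superfamily, 158 tags lay 98 bp upstream (2L, 4030879 to 4031533, fold enrichment 24.6). At the actin gene Act57B, 111 tags lay 477 bp upstream (2R, 16830587 to 16831424, fold enrichment 13.5), and at Dmtn 274 tags lay 437 bp downstream. Single maxima were thus found both near the start and at the edge of the 500 bp window.

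**Figure D5:**
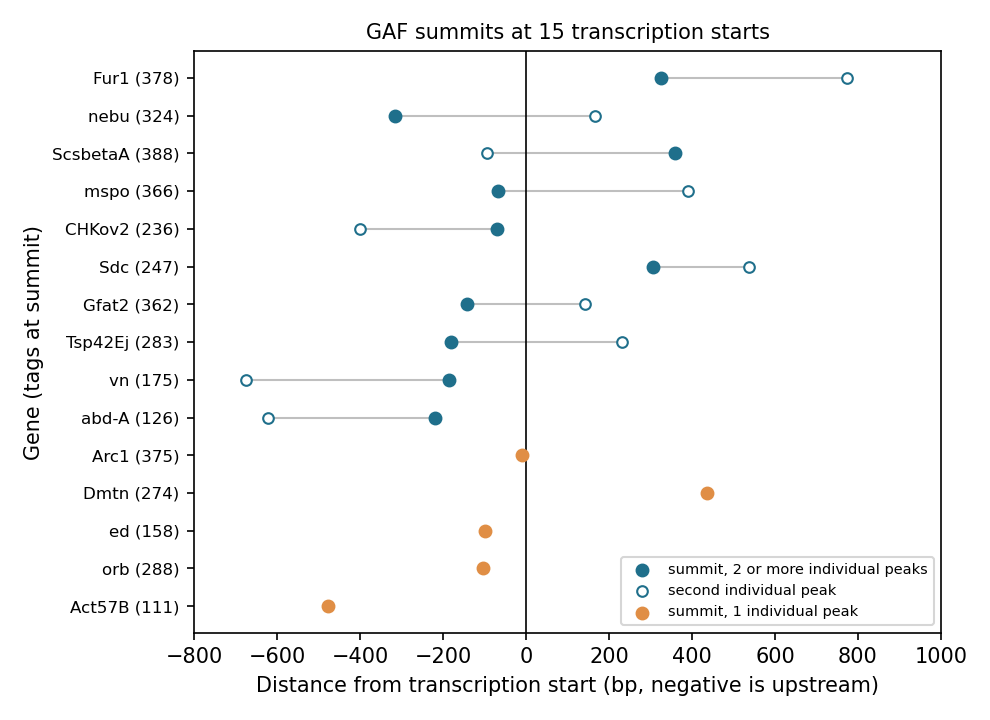
Position in bp from the transcription start (x axis, negative is upstream) of the region summit (filled points) and of the second individual peak (open points, joined by a line) for the 15 named genes, with tags at the summit in brackets. Regions with 2 or more individual peaks are blue and stand above those with 1 (orange). Summits run from 477 bp upstream at Act57B to 437 bp downstream at Dmtn.

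Further developmental regulators, chosen after their values were seen, were among the remaining members at held starts. At fj, a Golgi kinase of the planar polarity pathway, 197 tags lay 50 bp upstream and the second peak held 7 tags. At pk, a core planar polarity gene, 133 tags lay 77 bp upstream with a second peak of 5 tags. At vvl, a POU domain factor, 113 tags lay 142 bp upstream, and at eyg, a Pax family factor, 120 tags lay 223 bp upstream. At vri, a bZIP factor of the circadian clock, 107 tags lay 449 bp upstream with a second peak of 26 tags closer to the start, 31 bp upstream. At svp, an orphan nuclear receptor, 124 tags lay 303 bp downstream.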

How the data were processed

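The authors pooled the untreated replicates, mapped tags to dm3 (BWA, per the submitters' processing notes), and called regions with MACS 1.4.0beta against the background IP. Individual peaks came from the Subpeaks tool. Each region's tag count was deposited by the authors without normalization. The height of a summit or individual peak is a deposited signal, the number of overlapping tags. The deposited fold enrichment is a ratio of summit tags over those that the background IP predicts locally, or over the genome-wide level where higher. The deposited p-values are a score of 10 times -log10, and the deposited FDR is in percent. Limiting tags to 3 per position and strand can lower high summits, and fold enrichments depend on which background IP was used.

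Members were found by the width and height rule. An individual peak belonged to each region it overlapped by at least 1 bp, and 3 members share a peak with another region. The background expectation is summit height over fold enrichment. Ranges of a difference run between opposite ends of 95% binomial intervals (order statistics for medians, Wilson for shares) and cover counting error only. The assignment was tested on simulated data. Python 3.11.15, numpy 2.4.6, pandas 2.3.3, scipy 1.17.1 and matplotlib 3.10.9 were used.

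Positions are dm3, counted from 1. Starts came from the study's gene list, used for coordinates only, whose distances may be off by 1 bp. RefSeq Release 6 symbols were matched by locus tag for 1932 of 1999 transcripts. Regions named were extremes of fold enrichment, width, number and evenness of individual peaks and background expectation, and genes the 8 of largest fold enrichment per class with a symbol (5 with 1 peak) and those of fixed lists. Members, lists and rules were chosen with earlier results of these data known. Alternatives were limits on FDR, p-value, width and height, the overlap, width and height of individual peaks, and the distance to a start. No sequence was analysed here, since no dm3 genome was used.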

Additional observations from a re-analysis of the deposited data

How the results depend on the processing

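Of 89 alternative values, 73 stayed within the interval of the reported value (for the number of members, within 1.5 times) and 16 moved. The share of members with 2 or more individual peaks (82.7%) was 78.7% at widths under 1500 bp, 76.8% with individual peaks of at least 100 bp, 39.4% with heights of at least 20 tags and 16.8% with heights of at least 0.25 of the highest, which drop low peaks by construction. The ratio of second to highest peak (0.101) was 0.0833, 0.210 and 0.490 for the width, 20-tag and 0.25 limits, and 0.0883 at summits of 150 to under 350 tags, which kept 517 members. The difference in distance from the centre (47.75 bp) was 19.25, 138.25 and 139 bp under the width, 20-tag and 0.25 limits. Under the width limit its range, from -4.5 to 40 bp, includes 0. The distance of the 2 highest peaks (460 bp) was 440 bp at widths under 1500 bp and 505 bp with 20 tags. With 20 tags the difference in gap to the nearest region (1289 bp) was -1952.5 bp, with a range from -3302 to 100 bp, which includes 0. Within 200 bp, 31 members lay at a held start, against 50 within 500 bp. Width classes were added after seeing the data. Under 1000 bp, the share was 66.4%, the ratio 0.0722 and the distance of the highest peaks 410 bp. The differences there were -15.5 tags in summit (range -37 to 18) and 3662.5 bp in gap (range -943 to 6919). In distance from the centre the difference was -11.25 bp (range -29 to 5.5), the 1 reversal. These ranges all include 0. From 1000 to under 1500 bp the share was 89.9%. The differences there were -51 tags in summit (range -104 to 27) and -3.615 in fold enrichment (range -13.61 to 5.55), and both ranges include 0. Beyond what the limits remove by construction, the cause was not tested. No paired analysis was possible because both untreated replicates enter 1 pooled list, from which neither could be left out. The share of promoters with a GAGAG motif and its alternatives were not run, since no genome sequence was used here. Depth was not varied, and second peaks under 20 tags rest on few tags.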
